A study of Arabidopsis thaliana with 12 samples.

Results

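Transcripts of the UDP-dependent glycosyltransferases (UGTs) were followed in seedlings of Arabidopsis thaliana on 12 one-colour Agilent arrays, 1 array per sample. Members were the loci on the array whose gene symbol begins with UGT, a 2-digit family number and a letter, as in UGT73C1. UGT75C1, UGT78D2 and UGT79B1, which act in the anthocyanin and flavonol pathways, were left out by the same rule. This gave 57 of the 25410 loci on the array, of which 53 were among the 20487 genes tested. UGT73C2, UGT78D3 and UGT84B1 were not well above background on any array, and UGT84B2 was on 1 array of cry1cry2 on 3B7N, so these 4 were not tested. A further 6 loci in the gene table, 5 of them on the array, carry a UGT name only as a synonym and were not counted as members.

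The 4 groups of 3 arrays were cry1cry2 on 3B7N, cry1cry2 on dimethyl sulfoxide (DMSO), wild type Col-0 on 3B7N and wild type Col-0 on DMSO. 3B7N is 3-bromo-7-nitroindazole, a blocker of mammalian nitric oxide synthases, and was given at 15 µM in the agar medium, while DMSO served as the solvent control. cry1cry2 is a double mutant of the cryptochromes CRY1 and CRY2, the receptors through which blue light holds hypocotyls short, and the labels do not name its alleles. Seeds of each group lay for 3 days in the cold and dark on their medium, which held the compound from sowing onwards, and then stood under blue light (5 µmol m-2 s-1) for 4 days. Separate cultures are not mentioned for the samples of a group, and the p-values therefore measure the spread between these samples, which may be technical.

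UGTs move a sugar, most often glucose, from a UDP-sugar onto a small acceptor molecule. The conjugate is usually more soluble and less active than the free molecule, and many conjugates are stored in the vacuole. Acceptors include hormones, hydroxycinnamic acids, monolignols, flavonols, glucosinolate precursors and foreign chemicals, and 1 enzyme often accepts several of them in the test tube. The 2-digit number groups UGTs by protein sequence, and close paralogs often lie side by side in the genome.

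Each value below is the log2 of the processed signal relative to the 75th percentile of its array, called the relative log2 signal. Differences are on the log2 scale with their standard error (SE) and come from 1 limma fit to all 12 arrays. Calls needed a difference of at least 1 in size together with an adjusted p under 0.05 (Benjamini-Hochberg, over all genes tested). Relative levels depend on the probe and are compared between groups only, not between genes.

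The mutant matched its label, since CRY1 stood at -12.25 and CRY2 at -10.69 against wild type on DMSO. Each of these 2 probes was well above background on 1 of 3 arrays of cry1cry2 on DMSO, so the sizes are not measured. The 75th percentile of the processed signal lay between 882.6 and 6794 over the 12 arrays, the share of probes well above background was 64.4% to 81.2%, and no spot (0) was saturated. Of the 57 members, 53 in cry1cry2 on 3B7N, 51 in cry1cry2 on DMSO, 51 in wild type on 3B7N and 50 in wild type on DMSO were well above background on all 3 arrays. Of the 53 tested members, 49 were well above background on all 12 arrays, while UGT71B5, UGT71B8, UGT73C1 and UGT85A7 were below it on some and were tested because 1 or more groups had all 3 arrays above it. The arrays lay on 3 slides, and no slide held both genotypes on the same treatment. A slide holding both treatments of a genotype existed for wild type (slide 1, with 1 array on 3B7N and 3 on DMSO) and for the mutant (slide 3, with 3 on 3B7N and 1 on DMSO). Between genotypes on 1 treatment no within-slide value exists, and the fit with slide as a block links them only through the other groups.

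In the mutant, 3B7N raised 8 of the 53 UGT genes and lowered 0. These calls made up 15.1% of the members, against 3.73% of all genes called either way in this comparison, 2.1% higher and 1.63% lower. At an unadjusted p under 0.05 in limma, 20 members were higher and 1 was lower, and in wild type 26 and 7. The share of all genes at this cut-off was not counted. The median difference was 0.18 over the members and 0.04 over all genes. The genes that rose were UGT73C1, UGT84A2, UGT84A1, UGT74F1, UGT72E3, UGT73C7, UGT72E2 and UGT76E12. Normexp background correction, which adds an offset to each signal and so compresses dim probes, gave 4 members higher, slide as a block gave 5, and the fit without array 3 of cry1cry2 on 3B7N gave 5.

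In wild type, 3B7N raised 11 UGT genes and lowered 3. These calls made up 26.4% of the members, against 15% of all genes called either way. The split also differed, with 20.8% of the members called higher against 5.89% of all genes, and 5.66% called lower against 9.09% of all genes. The median difference was 0.41 over the members and -0.06 over all genes. UGT71B8, UGT84A3, UGT76E12, UGT74E2, UGT73C7, UGT74F2, UGT76E2, UGT85A7, UGT73B2, UGT75B1 and UGT73B3 rose, and UGT72B3, UGT84A1 and UGT78D1 fell. UGT85A7 was well above background on 1 of 3 wild type arrays on 3B7N and 0 of 3 on DMSO, so the size of its rise is not measured. Scaling each array to its median moved the median of all genes in this comparison by 0.14 and gave 15 members higher and 3 lower. Normexp gave 9 higher and 2 lower, and slide as a block gave 10 and 4. Keeping only probes well above background on all 12 arrays gave 9 and 3.

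The lists from the mutant and from wild type, which share no arrays, had 2 rising genes in common, UGT73C7 and UGT76E12. These are 25% of the 8 in the mutant and 18.2% of the 11 in wild type. Over all genes, 167 rose in both, which is 38.7% of the 431 that rose in the mutant and 13.8% of the 1207 that rose in wild type. UGT84A1 was called in opposite directions, and no member fell in both. The interaction, the mutant's difference with 3B7N minus the wild type's, was called for 15 members, 9 of them positive and 6 negative. That is 28.3% of the members against 18.6% of all genes, of which 12.7% were positive and 5.91% negative. With median scaling the same test gave 6 positive and 9 negative calls, and the median of all genes moved by -0.14.

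**Figure D1:**
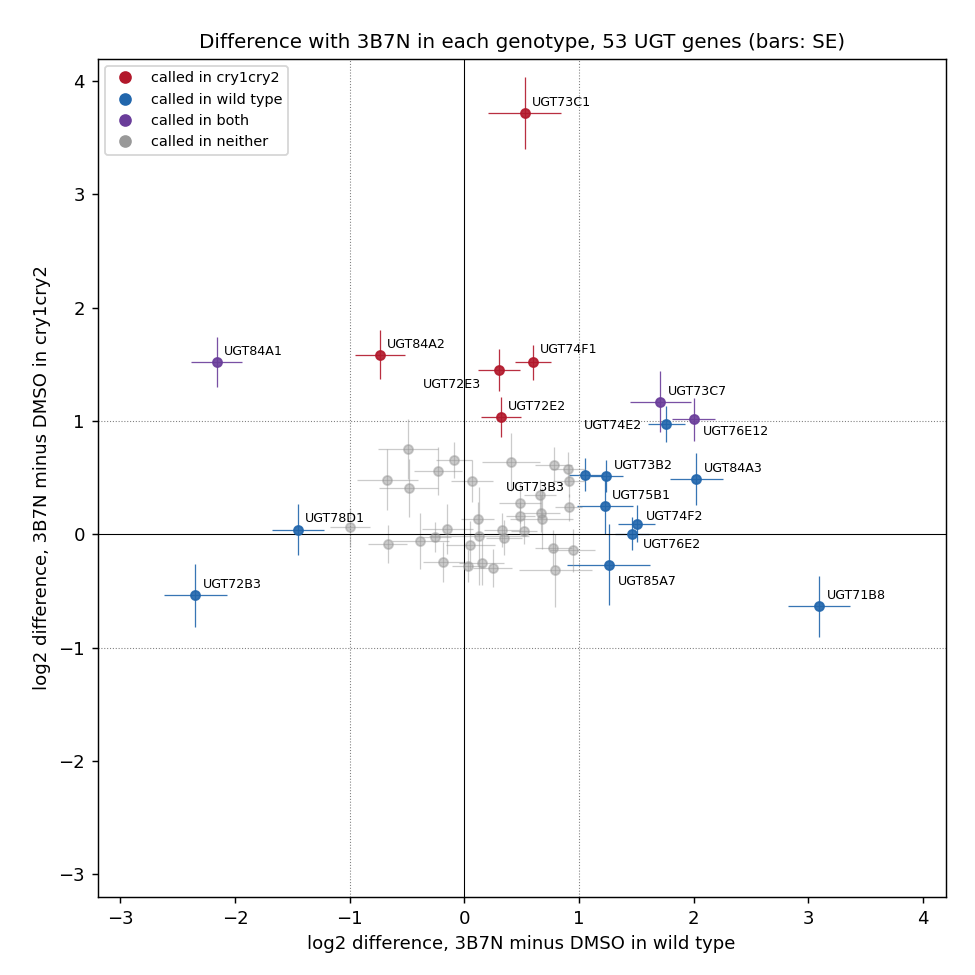
Log2 difference with 3B7N in cry1cry2 (vertical axis) against that in wild type (horizontal axis) for the 53 tested UGT genes, with SE as bars, dotted lines at a difference of 1 in either direction and colours for the genotype in which a gene was called. UGT73C7 and UGT76E12 lie in the upper right, UGT84A1 in the upper left at 1.52 and -2.16, and the other called genes passed the threshold in 1 genotype only.

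On DMSO the mutant had 4 UGT genes higher and 10 lower than wild type. These calls made up 26.4% of the members, against 19% of all genes called either way. The share called higher was 7.55% of the members and 7.62% of all genes, and the share called lower was 18.9% of the members and 11.4% of all genes. UGT76E2, UGT76E12, UGT71B8 and UGT74E2 were higher, and UGT73C1, UGT84A1, UGT84A2, UGT72B3, UGT71C1, UGT73C6, UGT85A1, UGT72E3, UGT72E2 and UGT75B2 were lower. Quantile normalization gave 6 higher and 9 lower, and normexp gave 1 higher and 7 lower. On 3B7N the mutant had 0 members higher and 4 lower, 7.55% of the members against 7.28% of all genes, of which 4.01% were higher and 3.27% lower. At an unadjusted p under 0.05 in limma, 5 members were higher and 15 lower on 3B7N, and 18 higher and 20 lower on DMSO. The share of all genes at this cut-off was not counted. The 4 were UGT71B8, UGT85A3, UGT84A3 and UGT71C2, and with slide as a block 0 of them were called.

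A list of 12 leaf and cotyledon markers moved with genotype, with 9 lower and 0 higher in the mutant on DMSO and 7 lower and 0 higher on 3B7N. These markers had 75% and 58.3% called, against 19% and 7.28% of all genes. Their summed relative signal lay between 303.94 and 633.49 in cry1cry2 on DMSO and between 963.18 and 1211.1 in wild type on DMSO. On 3B7N it lay between 512.27 and 642.53 in cry1cry2 and between 914.71 and 1666.1 in wild type, and every one of these markers was above background in each group. With 3B7N, 0 of 9 root markers were called in the mutant by limma, with 0 at an unadjusted p under 0.05. In wild type 2 rose, CASP1 and CASP2, and 0 fell, 22.2% of the list against 15% of all genes. At an unadjusted p under 0.05 in limma, 2 root markers were higher and 2 lower in wild type. Of the 9, 4 stood above 0 there, with a median of -0.14. Between genotypes, 2 root markers were higher and 4 lower in the mutant on DMSO, and 0 higher and 1 lower on 3B7N. These were 66.7% and 11.1% of the list, against 19% and 7.28% of all genes. The root markers summed to 16.022 to 23.318 in cry1cry2 on 3B7N, 16.6 to 22.752 in cry1cry2 on DMSO, 25.38 to 30.159 in wild type on 3B7N and 15.693 to 18.487 in wild type on DMSO. Of 12 seed markers, all were below 0 with 3B7N in the mutant (median -0.73), where only the albumin gene SESA1 was called, as lower. All were above 0 in wild type (median 1.51), where 2 rose. The calls made up 8.33% of the list in the mutant and 16.7% in wild type, against 3.73% and 15% of all genes. Between genotypes, 4 seed markers were higher and 0 lower in the mutant on DMSO, and 0 higher and 2 lower on 3B7N. These were 33.3% and 16.7% of the list, against 19% and 7.28% of all genes. The seed markers summed to 2.0738 to 3.5181 in cry1cry2 on 3B7N, 1.9524 to 5.5266 in cry1cry2 on DMSO, 3.1511 to 15.11 in wild type on 3B7N and 0.65808 to 7.446 in wild type on DMSO. SESA1 was above background on no array of the other groups, so it was tested only because of cry1cry2 on DMSO, where it was high. Its calls counted here were lower with 3B7N in the mutant and higher in the mutant on DMSO. Both compare that group with signal not above background, so the filter favoured them and their sizes are not measured. The part of these tissue differences in the UGT values was not tested, and in whole seedlings fewer cells of a type and less RNA per cell cannot be told apart.

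**Figure D2:**
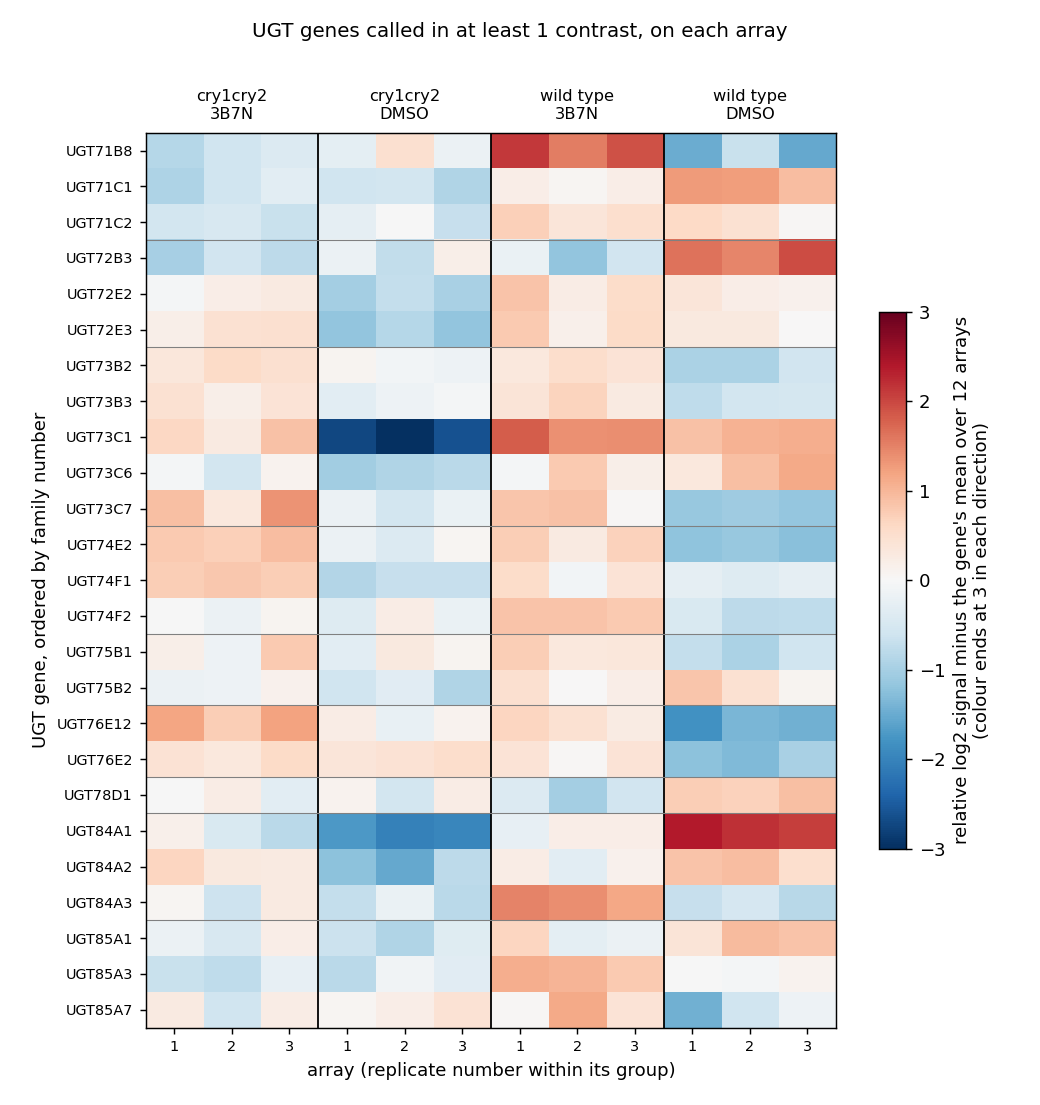
Relative log2 signal of the 25 UGT genes called in at least 1 of the 5 contrasts (rows, by family number) on each of the 12 arrays (columns, 3 per group), minus the gene's mean over all arrays. UGT73C1 and UGT84A1 are lowest in cry1cry2 on DMSO, and UGT71B8 is highest in wild type on 3B7N.

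The UGT84A enzymes make glucose esters of hydroxycinnamic acids, the branch that leads to sinapate esters. UGT84A1 (AT4G15480) had relative log2 signals of -3.78, -4.39 and -4.72 in cry1cry2 on 3B7N and of -5.64, -5.94 and -5.87 in cry1cry2 on DMSO. In wild type it had -4.16, -3.72 and -3.72 on 3B7N and -1.55, -1.72 and -1.84 on DMSO. Wild type on DMSO was the highest group and the mutant on DMSO the lowest, and both 3B7N groups lay between them, overlapping each other but neither DMSO group. With 3B7N it rose by 1.52 ± 0.22 in the mutant (limma, adjusted p = 0.00196) and changed by -2.16 ± 0.22 in wild type (adjusted p = 3.54e-05). The interaction was 3.68 ± 0.31 (adjusted p = 2.94e-05), and on DMSO the mutant stood at -4.11 ± 0.22 against wild type (adjusted p = 1.58e-07). Normexp gave 0.37 (adjusted p = 0.767) in the mutant, -1.54 (adjusted p = 0.0582) in wild type and an interaction of 1.91 (adjusted p = 0.114), while the difference on DMSO kept its call at -2.60. Within a slide the difference with 3B7N was 1.58 in the mutant and -2.46 in wild type.

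UGT84A2 (AT3G21560), the sinapate glucosyltransferase of leaves, had 2.0003, 1.65 and 1.64 in cry1cry2 on 3B7N and 0.13, -0.17 and 0.58 in cry1cry2 on DMSO. Wild type arrays had 1.59, 1.05 and 1.499 on 3B7N and 2.21, 2.28 and 1.86 on DMSO. The mutant on DMSO was the low group and overlapped no other. It rose by 1.58 ± 0.22 with 3B7N in the mutant (limma, adjusted p = 0.00127), and wild type gave -0.74 ± 0.22 (adjusted p = 0.0194), short of the required size. The interaction was 2.32 ± 0.31 (adjusted p = 0.000372), and the mutant stood at -1.94 ± 0.22 on DMSO (adjusted p = 3.32e-05). With slide as a block the rise in the mutant was 1.18 (adjusted p = 0.0657).

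UGT84A3 (AT4G15490), which also accepts hydroxycinnamic acids, had 0.87, 0.20 and 1.09 in cry1cry2 on 3B7N and 0.09, 0.60 and 0.01 in cry1cry2 on DMSO. The wild type had 2.31, 2.22 and 1.97 on 3B7N and 0.13, 0.30 and -0.01 on DMSO. Wild type on 3B7N stood above the other 3 groups, which overlapped each other. With 3B7N the mutant gave 0.49 ± 0.23 (limma, adjusted p = 0.244), and wild type rose by 2.02 ± 0.23 (adjusted p = 7.01e-05). The interaction was -1.54 ± 0.33 (adjusted p = 0.00521), and with slide as a block it was -1.45 (adjusted p = 0.0688). On 3B7N the mutant stood at -1.44 ± 0.23 against wild type (adjusted p = 0.00236), and with slide as a block at -1.03 (adjusted p = 0.518). UGT84A4 gave -0.09 in the mutant and -0.67 in wild type with 3B7N and was called in no contrast. UGT84A1, UGT84A3 and UGT84A4 are neighbours on chromosome 4, so the called pair in this run went in opposite directions in wild type.

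**Figure D3:**
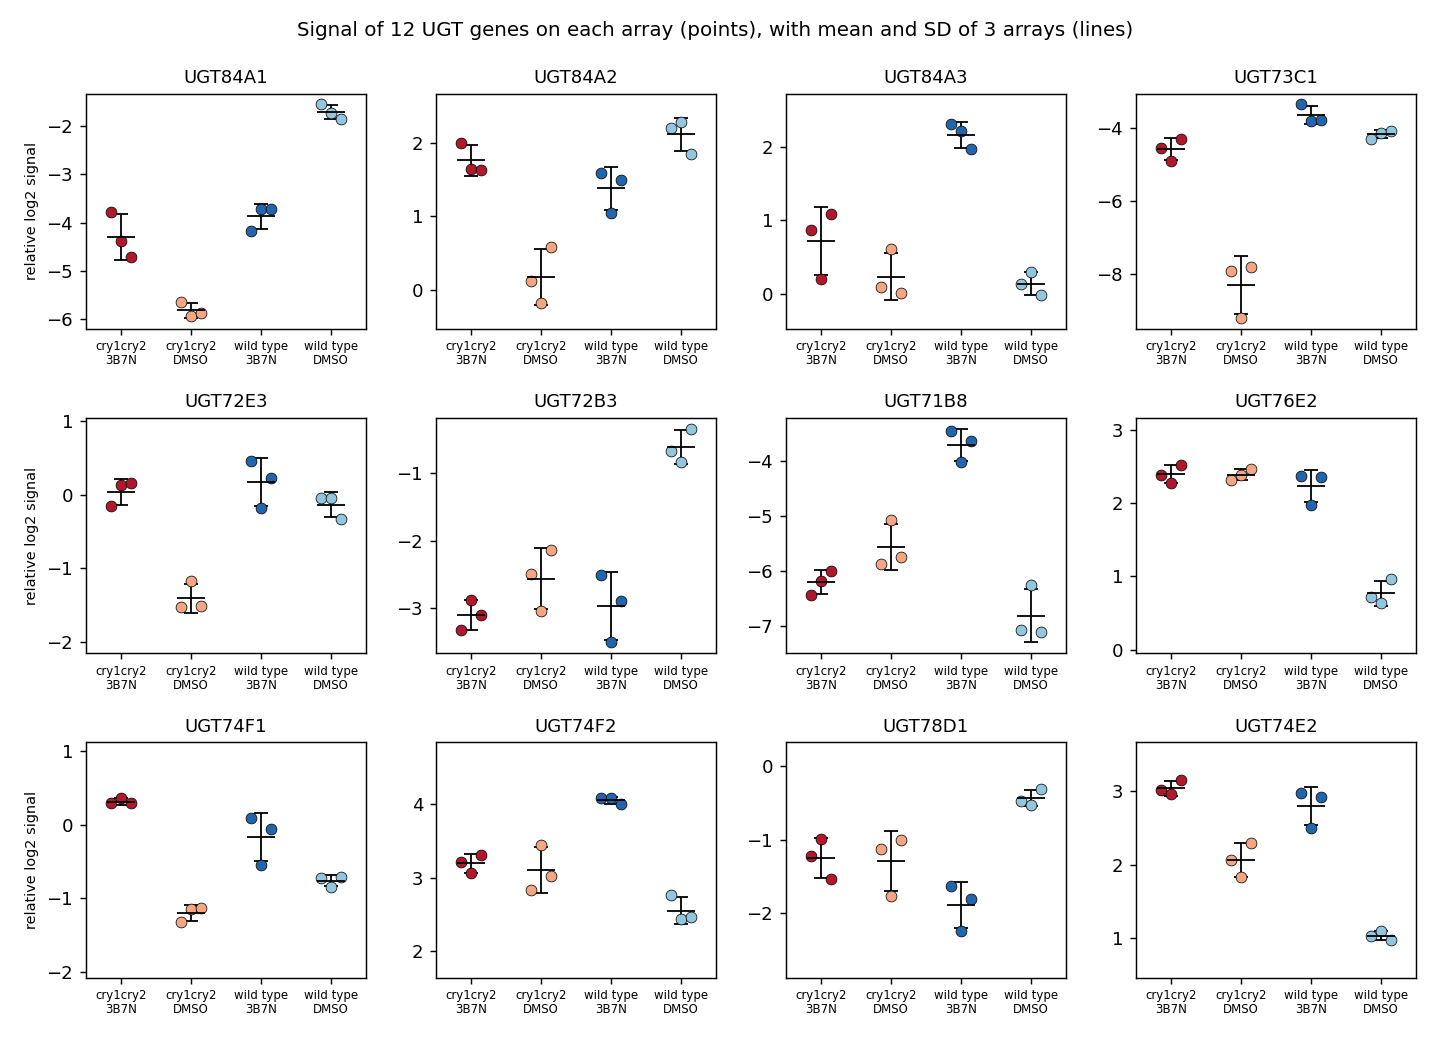
Relative log2 signal of 12 UGT genes on each array (points), with the mean and SD of 3 arrays (lines), for cry1cry2 on 3B7N, cry1cry2 on DMSO, wild type on 3B7N and wild type on DMSO from left to right. The vertical axes differ between panels. UGT84A1 has wild type on DMSO at the top, cry1cry2 on DMSO at the bottom and both 3B7N groups, which overlap, between them, and UGT76E2 shows 1 low group, wild type on DMSO.

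UGT72E1, UGT72E2 and UGT72E3 glucosylate monolignols and related aldehydes, the building blocks of lignin. UGT72E3 (AT5G26310) had -0.16, 0.13 and 0.16 in cry1cry2 on 3B7N and -1.53, -1.18 and -1.52 in cry1cry2 on DMSO. The values in wild type were 0.46, -0.18 and 0.24 on 3B7N and -0.04, -0.04 and -0.33 on DMSO. The mutant on DMSO was again the low group, and the other 3 overlapped. It rose by 1.45 ± 0.18 in the mutant (limma, adjusted p = 0.000749) and gave 0.30 ± 0.18 in wild type (adjusted p = 0.206). The interaction was 1.15 ± 0.26 (adjusted p = 0.00714), which was 0.97 with slide as a block (adjusted p = 0.088) and 0.97 without array 2 of wild type on 3B7N. A second probe of this gene gave 1.99 in the mutant and -0.0042 in wild type.

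UGT72E2 (AT5G66690) averaged -0.50 ± 0.17 in cry1cry2 on 3B7N, -1.54 ± 0.17 in cry1cry2 on DMSO, -0.09 ± 0.32 in wild type on 3B7N and -0.41 ± 0.12 in wild type on DMSO (SD, n = 3 each). Its rise in the mutant was 1.04 ± 0.17 (SE; limma, adjusted p = 0.00474). With normexp it was 0.95, without array 3 of cry1cry2 on 3B7N 0.97, and without array 1 or array 3 of cry1cry2 on DMSO it was 0.98 or 0.998, each below the required size. On DMSO the mutant stood at -1.27 ± 0.18 for UGT72E3 and -1.13 ± 0.17 for UGT72E2 (limma, adjusted p = 0.000207 and 0.00034), and with slide as a block at -0.78 (adjusted p = 0.109) and -0.61 (adjusted p = 0.158). UGT72E1 was called in no contrast. UGT72E2 and UGT72E3 are close paralogs, and whether their probes share signal was not tested.

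A group of 8 tested genes of the subfamilies UGT72B, UGT73B and UGT73C has members known to conjugate foreign chemicals. With 3B7N, 2 of them rose and 0 fell in the mutant, and 3 rose and 1 fell in wild type. These were 25% and 50% of the group, against 3.73% and 15% of all genes. UGT73C1 (AT2G36750), which glucosylates breakdown products of trinitrotoluene and, in the test tube, cytokinins, had -4.56, -4.90 and -4.30 in cry1cry2 on 3B7N and -7.91, -9.21 and -7.80 in cry1cry2 on DMSO. In wild type it had -3.36, -3.81 and -3.78 on 3B7N and -4.30, -4.13 and -4.10 on DMSO. The mutant on DMSO lay far below the other groups and was well above background on 1 of its 3 arrays. The sizes of differences from that group are therefore fitted values and are not measured. UGT73C1 rose by a fitted 3.72 ± 0.32 in the mutant (limma, adjusted p = 3.89e-05), the highest fitted difference among the members there. It gave 0.53 ± 0.32 in wild type (adjusted p = 0.205). The interaction was 3.19 ± 0.45 (adjusted p = 0.000516), and on DMSO the mutant stood at -4.13 ± 0.32 (adjusted p = 1.8e-06). Normexp ended these 3 calls, at 0.81 (adjusted p = 0.618), 0.34 (adjusted p = 0.832) and -1.36 (adjusted p = 0.156). Within slide 3 the rise in the mutant was 3.21.

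UGT72B3 (AT1G01420), a close relative of the pollutant-conjugating UGT72B1, had -3.31, -2.88 and -3.10 in cry1cry2 on 3B7N and -2.496, -3.04 and -2.14 in cry1cry2 on DMSO. The wild type had -2.51, -3.50 and -2.89 on 3B7N and -0.68, -0.84 and -0.35 on DMSO. Wild type on DMSO stood alone above the other 3 groups, which overlapped. With 3B7N the mutant gave -0.54 ± 0.28 (limma, adjusted p = 0.282), and in wild type the gene fell by 2.35 ± 0.28 (adjusted p = 8.43e-05). The mutant stood at -1.94 ± 0.28 on DMSO (adjusted p = 0.000188). The interaction of 1.81 ± 0.39 (adjusted p = 0.00551) was 0.93 with slide as a block (adjusted p = 0.188).

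UGT73C7 (AT3G53160) had -2.04, -2.61 and -1.59 in cry1cry2 on 3B7N and -3.12, -3.49 and -3.14 in cry1cry2 on DMSO. Wild type arrays had -2.10, -2.06 and -2.89 on 3B7N and -4.08, -4.00 and -4.10 on DMSO. Every 3B7N array lay above every DMSO array of its genotype. The rise was 1.17 ± 0.27 in the mutant (limma, adjusted p = 0.0223) and 1.71 ± 0.27 in wild type (adjusted p = 0.000565), and the interaction of -0.54 ± 0.38 was not called (adjusted p = 0.307). The call in the mutant was lost with normexp (0.64), with slide as a block (1.06, adjusted p = 0.277), and without array 1 or 3 of cry1cry2 on 3B7N (1.15 or 0.92) or any 1 of the 3 arrays of cry1cry2 on DMSO (1.05 to 1.24, adjusted p = 0.051 to 0.0791).

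UGT73B1, UGT73B2 and UGT73B3, known for flavonoid glucosylation in the test tube and for induction by pathogens, are neighbours on chromosome 4. With 3B7N in the mutant, these genes and UGT73B4 and UGT73B5 gave differences from 0.47 to 0.61. Of these 5, 0 were called, although each of the 5 had an unadjusted p under 0.05 in limma. Adjusted p was 0.04895, 0.038 and 0.0403 for UGT73B3, UGT73B4 and UGT73B5, which were short of the required size only. It was 0.0656 for UGT73B1 and 0.0513 for UGT73B2. UGT73B2 (AT4G34135) had 1.18, 1.41 and 1.28 in wild type on 3B7N and -0.08, -0.08 and 0.31 in wild type on DMSO, and rose by 1.24 ± 0.14 (limma, adjusted p = 7.65e-05). UGT73B3 (AT4G34131) had 4.89, 5.18 and 4.77 in wild type on 3B7N and 3.75, 3.96 and 3.97 in wild type on DMSO, and rose by 1.06 ± 0.14 (adjusted p = 0.000237). The groups of both genes did not overlap. The rise of UGT73B3 slipped below the required size with quantile normalization (0.91), slide as a block (0.998), array weights (0.98) and without array 2 of wild type on 3B7N (0.94) or array 1 of wild type on DMSO (0.98). UGT73B1 (0.91 ± 0.14), UGT73B4 (0.91 ± 0.15) and UGT73B5 (0.78 ± 0.16) in wild type were short of that size at adjusted p = 0.000514, 0.000738 and 0.00282.

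UGT73C6 (AT2G36790), which glucosylates flavonols and brassinosteroids, averaged -6.04 ± 0.35 in cry1cry2 on 3B7N, -6.79 ± 0.12 in cry1cry2 on DMSO, -5.57 ± 0.43 in wild type on 3B7N and -5.08 ± 0.42 in wild type on DMSO (SD, n = 3 each). On DMSO the mutant stood at -1.71 ± 0.26 (SE; limma, adjusted p = 0.000319), and at -0.52 with normexp. The interaction of 1.24 ± 0.37 (adjusted p = 0.0259) changed sign with normexp, to -0.40 (adjusted p = 0.792). It was also lost with median scaling, quantile normalization and slide as a block (1.105, 1.05 and 1.497), and without 7 of the 12 arrays taken in turn (1.06 to 1.19): arrays 1 and 3 of wild type on 3B7N, 2 and 3 of wild type on DMSO, 1 and 3 of cry1cry2 on 3B7N and 1 of cry1cry2 on DMSO.

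UGT78D1 (AT1G30530), the flavonol 3-O-rhamnosyltransferase and the only tested member of the flavonol group, had -1.22, -0.99 and -1.54 in cry1cry2 on 3B7N and -1.12, -1.76 and -1.0001 in cry1cry2 on DMSO. The wild type had -1.62, -2.24 and -1.80 on 3B7N and -0.47, -0.52 and -0.31 on DMSO. Wild type on DMSO was the highest group and overlapped no other. With 3B7N it gave 0.04 ± 0.23 in the mutant (limma, adjusted p = 0.942) and fell by 1.45 ± 0.23 in wild type (adjusted p = 0.000529). The interaction of 1.49 ± 0.32 (adjusted p = 0.0053) was 0.94 with slide as a block (adjusted p = 0.161). Of the 7 tested genes for the flavonol aglycones and their MYB regulators, 0 rose and 1 fell with 3B7N in the mutant, the isomerase gene TT5 at -1.30. The other 6 stood above 0 there, and the median of the list was 0.20. At an unadjusted p under 0.05 in limma, 2 of the list were higher and 1 lower in the mutant. In wild type 0 rose and 7 fell, with the flavonol synthase gene FLS1 at -2.41 and the hydroxylase gene TT7 at -1.59. On DMSO 0 were higher and 5 lower in the mutant, with FLS1 at -2.61 and the flavanone hydroxylase gene F3H at -3.17. The calls made up 14.3% of the list with 3B7N in the mutant, 100% in wild type and 71.4% between genotypes on DMSO. Over all genes the shares were 3.73%, 15% and 19%.

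Among the abscisic acid glucosyltransferases, UGT71B8 (AT3G21800) had -6.43, -6.18 and -5.99 in cry1cry2 on 3B7N and -5.87, -5.08 and -5.74 in cry1cry2 on DMSO. The wild type had -3.46, -4.03 and -3.65 on 3B7N and -7.07, -6.25 and -7.11 on DMSO. Wild type on 3B7N stood far above the other groups, and wild type on DMSO was well above background on 2 of 3 arrays. It gave -0.64 ± 0.27 with 3B7N in the mutant (limma, adjusted p = 0.191) and rose by 3.096 ± 0.27 in wild type (adjusted p = 1.2e-05), the highest difference among the members there. The interaction was -3.73 ± 0.38 (adjusted p = 8.55e-05). Against wild type the mutant stood at -2.49 ± 0.27 on 3B7N (adjusted p = 0.000281) and at 1.24 ± 0.27 on DMSO (adjusted p = 0.00324). Normexp ended these 4 calls, at 1.49 (adjusted p = 0.0739), -2.26 (adjusted p = 0.0755), -1.86 (adjusted p = 0.0526) and 0.397 (adjusted p = 0.661), and slide as a block ended that on 3B7N (-2.10, adjusted p = 0.243) and array weights that on DMSO (0.79). Its neighbour on chromosome 3, UGT71B6, and UGT71C5, both of which conjugate abscisic acid, were called in no contrast.

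Of 8 tested genes for conjugation of salicylate, benzoates and N-hydroxypipecolate, 1 rose and 0 fell with 3B7N in the mutant, and 2 rose and 0 fell in wild type. These were 12.5% and 25% of the group, against 3.73% and 15% of all genes. UGT74F1 (AT2G43840), which forms the salicylate glucoside, had 0.29, 0.36 and 0.29 in cry1cry2 on 3B7N and -1.33, -1.15 and -1.14 in cry1cry2 on DMSO. The values in wild type were 0.09, -0.54 and -0.06 on 3B7N and -0.73, -0.85 and -0.72 on DMSO. The mutant groups stood further apart than the wild type groups, and neither pair overlapped. The rise was 1.52 ± 0.16 in the mutant (limma, adjusted p = 0.000173), and wild type gave 0.60 ± 0.16 (adjusted p = 0.0112). The interaction of 0.92 ± 0.22 (adjusted p = 0.00985) was short of the required size.

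Its neighbour on chromosome 2, UGT74F2 (AT2G43820), which also forms the salicylate glucose ester, had the other pattern. It had 3.21, 3.06 and 3.31 in cry1cry2 on 3B7N and 2.83, 3.44 and 3.02 in cry1cry2 on DMSO. Wild type had 4.08, 4.08 and 4.00 on 3B7N and 2.76, 2.44 and 2.46 on DMSO. Wild type on 3B7N was above every other array, and the mutant groups overlapped. It gave 0.10 ± 0.16 with 3B7N in the mutant (limma, adjusted p = 0.793) and rose by 1.503 ± 0.16 in wild type (adjusted p = 5.22e-05), with an interaction of -1.41 ± 0.23 (adjusted p = 0.00129). These calls held under each of the 21 alternatives run.

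UGT75B1 (AT1G05560), an enzyme that accepts benzoates such as p-aminobenzoate, had 4.199, 3.88 and 4.83 in cry1cry2 on 3B7N and 3.72, 4.33 and 4.11 in cry1cry2 on DMSO. Wild type had 4.78, 4.36 and 4.37 on 3B7N and 3.31, 3.09 and 3.43 on DMSO. The mutant groups overlapped and the wild type groups did not. With 3B7N the mutant gave 0.25 ± 0.24 (limma, adjusted p = 0.61), and wild type rose by 1.23 ± 0.24 (adjusted p = 0.00231). A second probe gave -0.22 in the mutant and 1.29 in wild type. UGT75B2 was lower in the mutant on DMSO at -1.07 ± 0.21 (adjusted p = 0.00176), a call lost with normexp (-0.42), quantile normalization (-0.99), slide as a block (-0.55), and without array 1 of wild type on DMSO (-0.89) or array 3 of cry1cry2 on DMSO (-0.93). UGT76B1, which conjugates N-hydroxypipecolate and salicylate, gave 0.24 ± 0.12 with 3B7N in the mutant (adjusted p = 0.272) and 0.91 ± 0.12 in wild type (adjusted p = 0.00018), short of the call in both. UGT76D1, UGT71C3 and UGT89B1 were called in no contrast.

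UGT74E2 (AT1G05680), a glucosyltransferase of the auxin precursor indole-3-butyric acid, had 3.01, 2.96 and 3.16 in cry1cry2 on 3B7N and 2.06, 1.84 and 2.30 in cry1cry2 on DMSO. In wild type it had 2.97, 2.496 and 2.93 on 3B7N and 1.04, 1.098 and 0.97 on DMSO. The 3B7N groups of both genotypes overlapped, and the DMSO groups lay below them with the mutant above wild type. With 3B7N the mutant gave 0.98 ± 0.16 (limma, adjusted p = 0.00422), just short of the size required, and wild type rose by 1.76 ± 0.16 (adjusted p = 1.49e-05). On DMSO the mutant stood at 1.03 ± 0.16 (adjusted p = 0.000365), and at 0.97 with normexp, 0.998 without array 3 of wild type on DMSO and 0.91 without array 3 of cry1cry2 on DMSO. The interaction was -0.79 ± 0.23 (adjusted p = 0.0229) and not called. UGT74D1, the other tested gene of the auxin group, was called in no contrast.

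Among the 3 cytokinin glucosyltransferases, UGT85A1 (AT1G22400), which glucosylates trans-zeatin, averaged -0.48 ± 0.34 in cry1cry2 on 3B7N, -0.96 ± 0.27 in cry1cry2 on DMSO, -0.27 ± 0.51 in wild type on 3B7N and 0.40 ± 0.30 in wild type on DMSO (SD, n = 3 each). It was lower in the mutant on DMSO at -1.36 ± 0.27 (SE; limma, adjusted p = 0.00169), and at -0.62 with slide as a block (adjusted p = 0.271). Its interaction of 1.15 ± 0.38 (adjusted p = 0.0398) kept its call in 9 of 21 alternatives and was 0.30 with slide as a block. UGT76C1 and UGT76C2 were called in no contrast. The glucosinolate enzyme gene UGT74B1 and the sterol glucosyltransferase gene UGT80B1 were not called either.

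Among members outside these substrate groups, UGT76E2 (AT5G59590) had 2.39, 2.27 and 2.51 in cry1cry2 on 3B7N and 2.31, 2.38 and 2.47 in cry1cry2 on DMSO. The wild type had 2.37, 1.98 and 2.35 on 3B7N and 0.72, 0.63 and 0.96 on DMSO. Wild type on DMSO was the low group, and the other 3 overlapped. It gave 0.0039 ± 0.15 with 3B7N in the mutant (limma, adjusted p = 0.993) and rose by 1.46 ± 0.15 in wild type (adjusted p = 2.79e-05). The interaction was -1.46 ± 0.21 (adjusted p = 0.00053), and the mutant stood at 1.62 ± 0.15 on DMSO (adjusted p = 6.17e-06). These 3 calls held under each of the 21 alternatives.

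UGT76E12 (AT3G46660) had -3.003, -3.45 and -2.98 in cry1cry2 on 3B7N and -3.98, -4.41 and -4.09 in cry1cry2 on DMSO. Wild type arrays had -3.54, -3.73 and -3.94 on 3B7N and -6.01, -5.55 and -5.64 on DMSO. Wild type on DMSO lay below the other groups, and 3B7N arrays lay above DMSO arrays in both genotypes. The rise was 1.02 ± 0.19 in the mutant (limma, adjusted p = 0.00818) and 2.003 ± 0.19 in wild type (adjusted p = 1.87e-05), and the interaction of -0.99 ± 0.27 (adjusted p = 0.0172) was just short of the size required. On DMSO the mutant stood at 1.58 ± 0.19 (adjusted p = 5.32e-05), and at 0.84 with normexp (adjusted p = 0.0885). The call in the mutant was lost with normexp (0.27), quantile normalization (0.99), slide as a block (0.95), array weights (0.91), and without array 1 or 3 of cry1cry2 on 3B7N (0.95 or 0.93) or array 2 of cry1cry2 on DMSO (0.89). Its neighbour UGT76E11 was called in no contrast.

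UGT71C1 (AT2G29750), which accepts hydroxycinnamic acids and flavonoids in the test tube, had -1.11, -1.06 and -1.41 in cry1cry2 on DMSO, against 0.75, 0.74 and 0.40 in wild type on DMSO. On 3B7N it had -1.44, -1.12 and -0.83 in the mutant and -0.31, -0.46 and -0.32 in wild type. Neither pair overlapped. The mutant stood at -1.82 ± 0.17 on DMSO (limma, adjusted p = 9.55e-06), and 3B7N gave -0.999 ± 0.17 in wild type (adjusted p = 0.00107), just outside the threshold of size. The interaction of 1.06 ± 0.25 (adjusted p = 0.00803) fell below that size with normexp (0.91), median scaling (0.92) and without array 3 of cry1cry2 on 3B7N (0.91) or of cry1cry2 on DMSO (0.95). The next gene in the same run on chromosome 2, UGT71C2, was lower in the mutant on 3B7N at -1.09 ± 0.20 (adjusted p = 0.00393), and at -0.46 with slide as a block (adjusted p = 0.685).

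The UGT85A run on chromosome 1 holds UGT85A7, UGT85A2, UGT85A5, UGT85A3 and UGT85A1, the longest run of neighbouring members. UGT85A3 had -5.70, -5.79 and -5.27 in cry1cry2 on 3B7N and -3.95, -4.02 and -4.24 in wild type on 3B7N, without overlap. The mutant stood at -1.52 ± 0.19 on 3B7N (limma, adjusted p = 0.000682), and at -1.58 with slide as a block (adjusted p = 0.218) and -1.27 with normexp (adjusted p = 0.15). Its interaction of -1.09 ± 0.27 (adjusted p = 0.012) was lost with normexp, slide as a block, array weights and without array 2 of either mutant group (-0.98 and -0.93). UGT85A7 averaged -6.67 ± 0.56 in wild type on 3B7N, where 1 of 3 arrays was well above background, and -7.93 ± 0.66 in wild type on DMSO, where 0 of 3 were (SD, n = 3 each). Its fitted difference with 3B7N in wild type was called higher (limma, adjusted p = 0.0164). Most of these arrays were not well above background, so its size is not measured. That call was lost with normexp, slide as a block (0.76) and without array 2 of wild type on 3B7N (0.95) or array 1 of wild type on DMSO (0.90). Its fitted interaction (limma, adjusted p = 0.0416) rests on the same arrays not well above background, so its size is not measured, and it kept its call in 8 of 20 alternatives. UGT85A2 and UGT85A5 were called in no contrast by the probes used. A second probe of UGT85A5, well above background on all arrays, gave 1.37 with 3B7N in wild type and -0.60 in the mutant. It stood at 1.27 in the mutant against wild type on DMSO. The probe used gave 0.78, -0.12 and 0.48.

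Seen by family number, the 9 tested UGT73 genes gave 2 higher and 0 lower with 3B7N in the mutant, where the difference was above 0 for all 9, and 3 higher and 0 lower in wild type, with medians of 0.58 and 0.91. The 10 UGT71 genes gave 0 calls in the mutant and 1 higher in wild type, with medians of -0.15 and 0.12. The 8 UGT76 genes gave 1 higher in the mutant and 2 higher in wild type, and the 5 UGT74 genes gave 1 and 2. The 4 UGT84 genes gave 2 higher and 0 lower in the mutant and 1 higher and 1 lower in wild type. Of the 4 UGT72 genes, 3 stood lower and 0 higher in the mutant on DMSO, namely UGT72B3, UGT72E3 and UGT72E2. Over all genes, 2.1% were called higher and 1.63% lower with 3B7N in the mutant, and 5.89% and 9.09% in wild type. On DMSO 7.62% of all genes were called higher and 11.4% lower in the mutant. With 3B7N in the mutant, 11271 of the 20487 genes tested had a difference above 0. The families differ in size and hold paralogs whose probes could share signal, which was not tested, so these counts are given as a description.

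**Figure D4:**
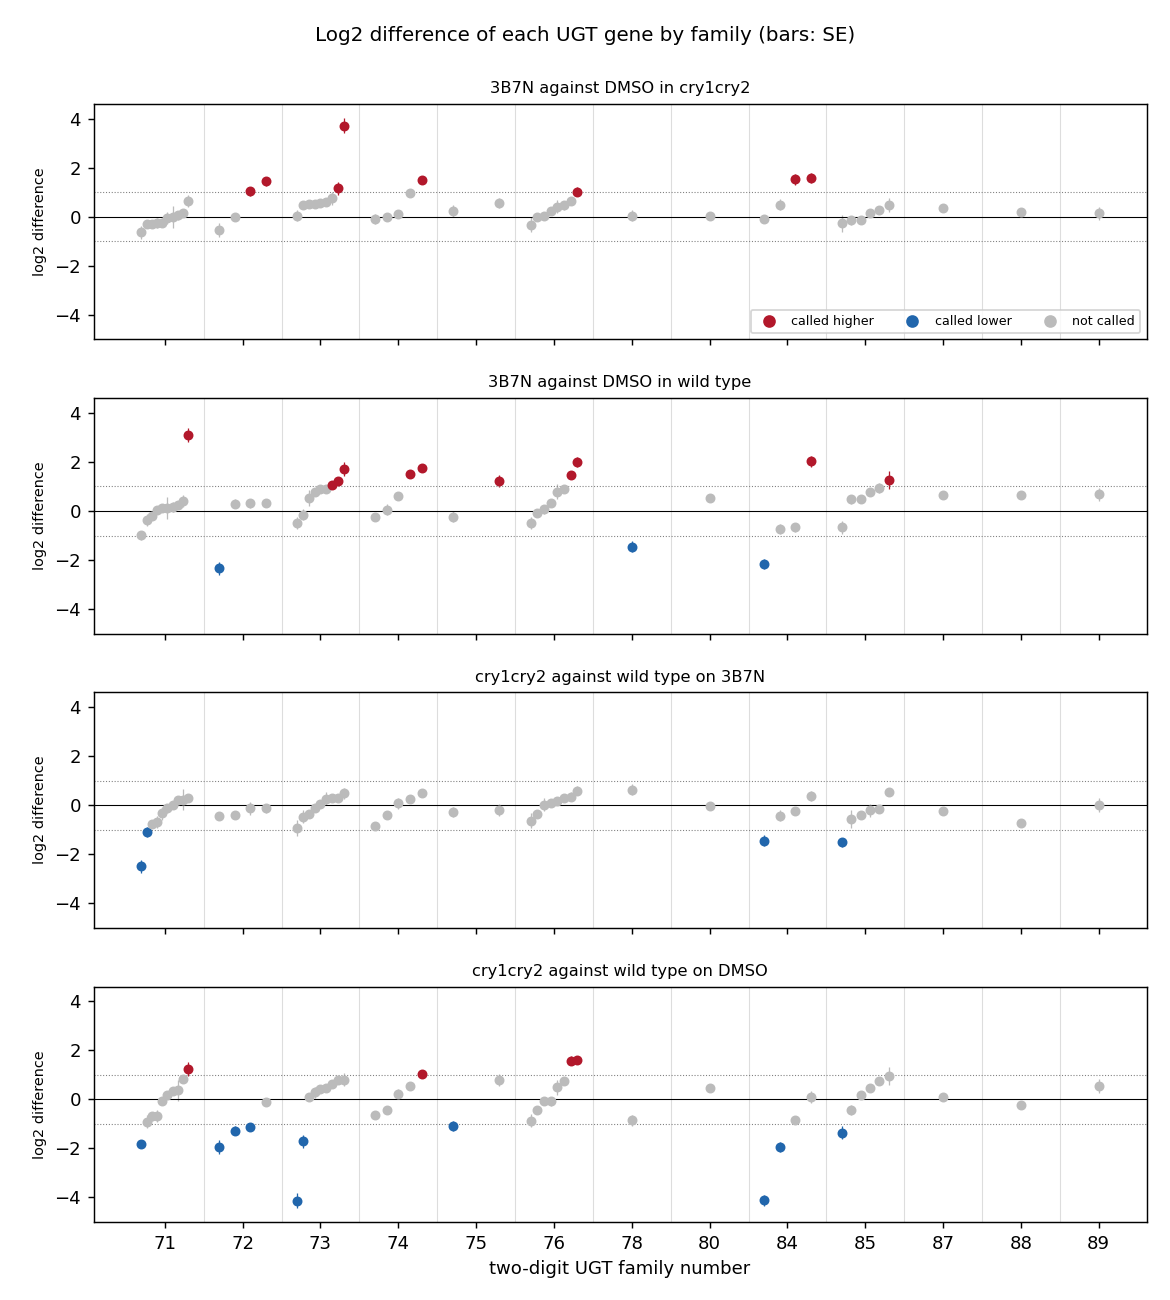
Log2 difference of each tested UGT gene (points, SE as bars) by 2-digit family number in 4 contrasts, with red for genes called higher, blue for genes called lower and dotted lines at a difference of 1 in either direction. All 9 genes of family 73 lie above 0 with 3B7N in cry1cry2, and 3 of the 4 genes of family 72 were called lower in cry1cry2 on DMSO. Over all genes, 11271 of 20487 lay above 0 with 3B7N in cry1cry2, and 11.4% were called lower in cry1cry2 on DMSO.

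In all, 35 of the 57 members lie in 14 runs of neighbours with at most 1 other protein-coding gene between them. In the UGT73B run on chromosome 4 the 3 genes gave close differences with 3B7N in wild type (1.06, 1.24 and 0.91), and in the UGT84A run they did not (-2.16, 2.02 and -0.67). UGT71B8 and UGT71B6 stood at 3.096 and 0.41 there, and UGT76E12 and UGT76E11 at 2.003 and 0.06. Runs of neighbours thus held both like and unlike differences in these data, read through 1 probe per gene.

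Other genes of conjugation and transport were counted beside the UGTs. Of 22 detoxification partners, 4 rose and 0 fell with 3B7N in the mutant, and 8 rose and 0 fell in wild type. These partners include oxidases, glutathione transferases and efflux carriers linked to foreign chemicals. The calls made up 18.2% and 36.4% of the list, against 3.73% and 15% of all genes called either way. The glutathione transferase gene GSTU3 rose by 3.72 ± 0.36 in the mutant (limma, adjusted p = 8.89e-05) and by 3.75 ± 0.36 in wild type (adjusted p = 1.94e-05), and with normexp both lost their call (0.89 and 1.02). The transporter gene ABCG40 rose by 1.93 ± 0.36 in the mutant (adjusted p = 0.00795, and 1.22 with slide as a block, adjusted p = 0.254) and by 6.20 ± 0.36 in wild type (adjusted p = 8.25e-07). The others in the mutant were DTX1 at 1.83 and CYP81D8 at 1.79, and slide as a block left 1 of the 4 calls, that of GSTU3. Of 6 regulators of detoxification, 0 were called in either genotype by limma, with 0 at an unadjusted p under 0.05 in the mutant and 3, all of them higher, in wild type.

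Of 10 tested genes of the GH3 family and the amidohydrolases, which join hormones to amino acids and free them again, 0 were called with 3B7N in the mutant, where 0 were higher and 2 lower at an unadjusted p under 0.05 in limma. In wild type 3 rose and 0 fell: the auxin conjugation genes GH3.3 by 2.21 ± 0.19 (adjusted p = 1.18e-05) and GH3.5 by 1.55 ± 0.22 (adjusted p = 0.000273), and PBS3, which acts in salicylate synthesis, by 1.46 ± 0.42 (adjusted p = 0.016). The call of PBS3 was lost with slide as a block (0.94), with the mean of all its probes (0.99) and without array 3 of wild type on 3B7N (1.22) or on DMSO (1.26). The 3 calls in wild type were 30% of the GH3 and amidohydrolase list, against 15% of all genes. Of 27 genes that supply UDP-sugars, 0 rose and 2 fell with 3B7N in the mutant, and 2 rose and 1 fell in wild type. These were 7.41% and 11.1% of the list, against 3.73% and 15% of all genes called either way. The sucrose synthase gene SUS3 rose by 2.28 ± 0.20 in wild type (limma, adjusted p = 1.38e-05), the epimerase gene UGE1 by 1.66 ± 0.19 (adjusted p = 8.43e-05), and the UDP-glucose pyrophosphorylase gene UGP2 stood at -1.18 ± 0.15 (adjusted p = 0.000164), or -0.96 with the mean of all its probes. In the mutant SUS4 stood at -1.79 ± 0.21 (adjusted p = 0.000373) and UXS6 at -1.07 ± 0.16 (adjusted p = 0.00241). The call of UXS6 was lost with slide as a block, with normexp (-0.97) and without array 1 of cry1cry2 on 3B7N (-0.96). Of 8 vacuolar ABCC transporters, which carry conjugates, 0 were called in the mutant, where 2 were higher and 0 lower at an unadjusted p under 0.05 in limma. In wild type 1 rose, ABCC14 by 1.25 ± 0.16 (limma, adjusted p = 0.000175), which is 12.5% of the list against 15% of all genes.

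Between genotypes on DMSO, 4 of the 22 detoxification partners were higher and 0 lower in the mutant, with ABCG40 at 5.33 ± 0.36 (limma, adjusted p = 7.2e-07). On 3B7N, 2 were higher and 1 lower. The calls made up 18.2% of the list on DMSO and 13.6% on 3B7N, against 19% and 7.28% of all genes. The UDP-sugar genes gave 5 higher and 1 lower on DMSO, with SUS3 at 2.31 ± 0.20 and UGP2 at -1.65 ± 0.15, and 0 higher and 1 lower on 3B7N. These were 22.2% and 3.7% of the list, against 19% and 7.28% of all genes. The GH3 and amidohydrolase genes gave 3 higher on DMSO, PBS3 at 3.05 ± 0.42 (1.91 with slide as a block, which ended that call), GH3.3 at 2.63 ± 0.19 and ILR1 at 1.08, or 0.99 with normexp. The 3 calls on DMSO were 30% of that list, against 19% of all genes. None (0) of these 10 was called on 3B7N in limma, with 2 higher and 4 lower at an unadjusted p under 0.05. The ABCC genes gave 0 calls between genotypes in limma, with 2 higher and 1 lower on DMSO and 0 higher and 3 lower on 3B7N at an unadjusted p under 0.05.

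The authors' deposited table lists probes of 7 members for 3B7N in the mutant, and all 7 were called here. UGT73C1, the other member called in the mutant, is not among those 7 in the authors' deposited table. For wild type the authors' deposited table lists probes of 14 members, and 12 of them were called here. UGT71B8 and UGT85A7, called here, are not among those 14 in the authors' deposited table. The remaining members in the authors' deposited table, UGT71C1 with an absolute fold change of 2.05 and UGT85A5 with 2.53 by a probe that did not represent the gene here, were not.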

How the data were processed

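RNA of 12 whole-seedling samples was hybridised to 1-colour Agilent arrays, 1 array each. Agilent Feature Extraction 10.7.3.1 read the spots. Per the file headers, the deposited processed signal is an intensity with background subtracted and spatial trends removed, with no scaling across arrays. The authors' deposited table holds unsigned fold changes and corrected p-values for 3453 probes in wild type and 577 in the mutant. Its lowest fold is 2, and how its values were scaled and tested is not given in the sources used here.

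From the 43803 non-control spots per array, log2 processed signals were averaged per probe, probes flagged as outliers on any array (49) were left out, and each array's 75th percentile was subtracted. Probes were named through their transcript accession in a RefSeq gene table (34348 matched, 9255 did not). Probes entered if some group had all 3 of its arrays well above background (28504 probes), and the brightest kept probe stood for each of 20487 genes. One limma fit (version 3.58.1, R 4.3.3, lmFit and eBayes, two-sided) gave 4 group means and 5 contrasts, with Benjamini-Hochberg adjustment over all genes. The scripts were tested on simulated data. Precision is limited by 3 arrays per group, and p-values measure the spread between them.

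The members, substrate groups and gene lists were chosen with earlier results of these data known. Named were the 12 highest and 12 lowest called members per contrast, members of substrate groups and small counts, and at most 4 genes per list by adjusted p. CHI was dropped from the flavonol list because the gene table gives that symbol to a chitinase, SUS2 was set to the sucrose synthase locus, and RCD1 was dropped from the root markers, where it had been listed in error.

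Alternatives were normexp background correction (offset 50, on median spot signals), median scaling, quantile normalization, no filter or a strict filter on dim probes, the mean of all kept probes, array weights, slide as a block, a replicate block and leaving out each array. Same-numbered samples did not deviate together, with correlations of their deviations from -0.33 to 0.36 over 18 pairs, so replicate numbers were not treated as pairing samples. Probe and gene sequences were not used here.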

Additional observations from a re-analysis of the deposited data

Results flagged for a closer look

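For 15 members the difference with 3B7N in the mutant differed from that in wild type by a called interaction term in limma (mutant minus wild type, log2). It was positive for UGT84A1 (3.68), UGT73C1 (3.19), UGT84A2 (2.32), UGT72B3 (1.81), UGT78D1 (1.49), UGT73C6 (1.24), UGT85A1 (1.15), UGT72E3 (1.15) and UGT71C1 (1.06). It was negative for UGT85A3 (-1.09), UGT74F2 (-1.41), UGT76E2 (-1.46), UGT85A7 (-1.53), UGT84A3 (-1.54) and UGT71B8 (-3.73). The value of UGT85A7 is a fitted one that rests on wild type on DMSO, where 0 of 3 arrays were well above background, so its size is not measured. For UGT84A1 the differences with 3B7N had opposite signs, 1.52 in the mutant and -2.16 in wild type, and both were called. UGT76E2 stood at 0.0039 in the mutant and 1.46 in wild type, and UGT73C1 at 3.72 in the mutant and 0.53 in wild type. For UGT73C1, cry1cry2 on DMSO was well above background on 1 of 3 arrays, so the sizes of 3.72 and 3.19 are not measured. The interaction calls of UGT84A2, UGT74F2 and UGT76E2 held under each of the 21 alternatives.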

How the results depend on the processing

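Of the alternatives, normexp background correction and slide as a block ended the most named calls. With 3B7N in the mutant, 8 members were higher, 4 with normexp and 5 with slide as a block. On DMSO the mutant had 4 members higher, and 1 with normexp. On 3B7N it had 4 lower, 2 with normexp and 0 with slide as a block. The interaction was positive for 9 members, 4 with normexp and 5 with slide as a block, and negative for 6, 3 with normexp. Of 55 named calls, 20 held in every alternative run, 24 were lost with normexp, 21 with slide as a block, 4 each with quantile normalization and array weights, 3 with median scaling, 2 with no filter and 0 with the mean of all kept probes. The strict filter tested 49 members and kept 46 of 46 calls. Calls gained under an alternative are not in this tally. The mean of all kept probes gave 12 members higher with 3B7N in wild type, 5 higher in the mutant on DMSO and 8 negative interactions. The main run gave 11, 4 and 6. One value changed sign, the UGT73C6 interaction, at -0.40 with normexp (adjusted p = 0.792) against 1.24 as reported. Why these values moved was not tested. The normexp run differed from the main one both in its offset and in starting from median spot signals. Leaving out 1 array at a time gave 5 to 9 members higher and 0 lower with 3B7N in the mutant (5 without array 3 of cry1cry2 on 3B7N), and 9 to 13 higher and 3 to 4 lower in wild type. It gave 3 to 4 higher and 10 to 11 lower in the mutant on DMSO, 0 higher and 4 lower on 3B7N, and 6 to 10 positive and 4 to 8 negative interactions. The fit with a replicate block gave 8 higher and 0 lower in the mutant and 11 higher and 3 lower in wild type, and it changed no member's call. The pathway lists were run under the same alternatives, a choice made after seeing the data. Median scaling gave 15 members higher in wild type with 3B7N, and 6 positive and 9 negative interactions. It moved the median of all genes by 0.14 in wild type with 3B7N, -0.13 between genotypes on 3B7N and -0.14 in the interaction. Signal over background limits UGT85A7, UGT73C1, UGT71B8 and UGT71B5.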
